A study of Mus musculus with 5 samples.

Results

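The Kruppel-like factors (KLFs) are zinc finger transcription factors, and 10 genes of the family were followed here in the newborn mouse ovary: Klf2, Klf3, Klf4, Klf5, Klf6, Klf7, Klf9, Klf10, Klf13 and Klf15. Every probe set that the probe-to-gene table gives a single symbol from this list was taken, which made 34 probe sets of the 45101 on the array and 10 genes of the 18193 with a probe set of their own. The 10 genes were chosen with earlier results of the comparison of Lhx8 null and wild type ovaries known, so their own differences are given as a description, with standard errors and without p-values.

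Lhx8 encodes a LIM homeodomain protein of the oocyte. Affymetrix arrays measured total RNA of ovaries taken 0.5 days after birth from female mice on a C57/BL6/129SVEV hybrid background. The first group was 3 arrays labelled Lhx8 null (replicates 1, 2 and 3) and the other was 2 arrays labelled wild type (replicates 2 and 3); a first wild type replicate was not analysed here. Per the labels, 50 ovaries went into the RNA of each array, and the pool came from at least 25 animals, so the spread between arrays is a spread between pools and not between mice. The labels name neither the allele nor any treatment given to the animals, and both groups share the strain, sex, age and tissue. Nothing in the labels says that pools of the same replicate number were linked.

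All KLFs bind DNA through C2H2 zinc fingers near the carboxyl end of the protein, and their sites are GC-rich boxes and the related CACCC box, which the Sp factors of the same superfamily also bind. The more variable amino-terminal part sets the partners. KLF3, KLF8 and KLF12 recruit the corepressor CtBP, KLF9, KLF10, KLF11, KLF13, KLF14 and KLF16 recruit the SIN3A corepressor, and KLF1, KLF2, KLF4, KLF5, KLF6 and KLF7 are known mainly as activators that bind acetyltransferases. KLF15 and KLF17 stand outside these groups. Several members are transcribed soon after a growth factor, shear stress or hormone signal, and in the female reproductive tract KLF4, KLF9 and KLF15 are known for their dealings with steroid hormone receptors.

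Across all probe sets, the log2 signals of arrays of 1 group correlated at 0.96 to 0.974 and those of different groups at 0.905 to 0.931. The Lhx8 probe set read 332.6, 159 and 347.4 on the null arrays against 6450.1 and 5223.1 on the wild type arrays, although its place relative to the deleted sequence is not given. The deposited signals had been scaled to a trimmed mean of 500 on every array. On the log2 scale with 16 added, the median of an array was 7.00 to 7.18 in null and 6.80 to 6.83 in wild type samples, and the BioC hybridisation control was 2.12 times as high in null samples. The Actb 3′ to 5′ signal ratio, a measure of RNA integrity, was 1.48 to 1.69 in null and 1.39 to 1.43 in wild type samples. The part of the spike control and of the ratio in the results was not tested.

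Members were mostly higher in null ovaries. A gene was read from its brightest probe set, log2(signal + 16) was quantile normalised, and differences are null minus wild type on that scale, fitted with limma over the 10916 genes left once the dimmest 40% were set aside. In that fit 7 of the 9 members tested (Klf2, Klf3, Klf4, Klf5, Klf7, Klf9 and Klf13) were called higher at an adjusted p below 0.05, none was called lower, and Klf6 and Klf10 were not called. Of all genes tested, 25.6% were called higher and 22.3% lower. Klf15 was too dim to be tested. The median difference was 0.76 for the members tested and 0.04 for all genes tested. Because the members were chosen with this contrast known, nothing is read from these counts. Among all genes tested, 0.54% had a larger difference than Klf5 and 1.1% a larger one than Klf9. The same share was 6.6% for Klf3, 7.33% for Klf4 and 14.5% for Klf13. It was 19.8% for Klf2, 20% for Klf7, 29.8% for Klf6 and 62.1% for Klf10, so the family spanned the range from the extreme of the distribution to its middle.

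**Figure D1:**
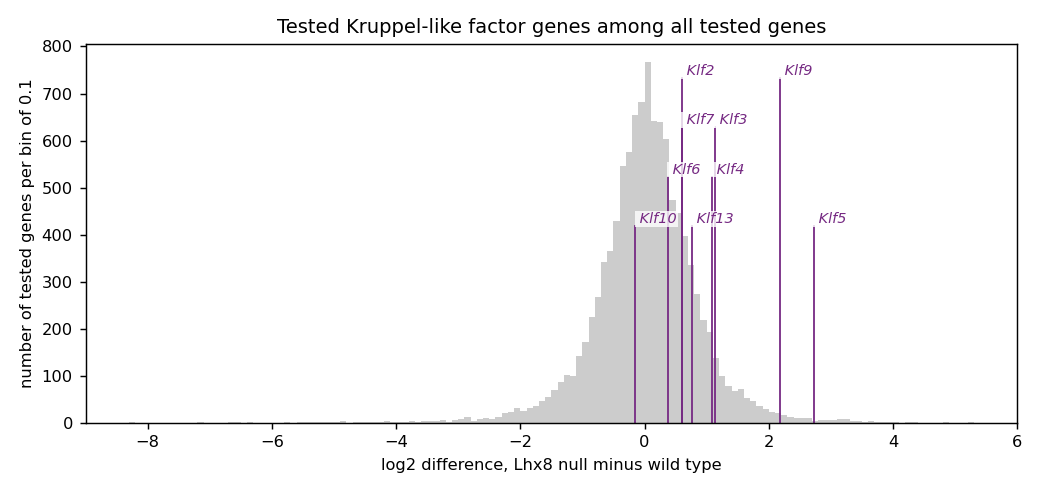
Distribution of the log2 difference (null minus wild type, x axis) over the 10916 genes tested, with vertical lines at the 9 members tested. Klf5 at 2.72 and Klf9 at 2.18 lie in the right tail, and Klf10 at -0.15 lies near the middle.

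Counting arrays in place of fitted values gave a like picture. In 7 of the 9 members tested the deposited signal of every null array was above that of both wild type arrays, against 37.4% of all genes tested. Over the single probe sets, all null arrays were above both wild type arrays in 25 of the 34, below both in 1 and overlapping in 8. Of all 45037 probe sets that are no controls, 29.3% were above in this way and 20.9% below. Among the 22 member probe sets whose mean exceeded the level at which genes were tested, a signal of about 150, the counts were 17 above, 1 below and 4 overlapping. The other 12 were at or under that level. The share of all probe sets above that level is not given, and 29.3% and 20.9% include dim probe sets. The mean was over both groups, so a probe set dim in wild type samples could pass through its null signals. As with the fitted values, the choice of members fixes much of these counts.

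**Figure D2:**
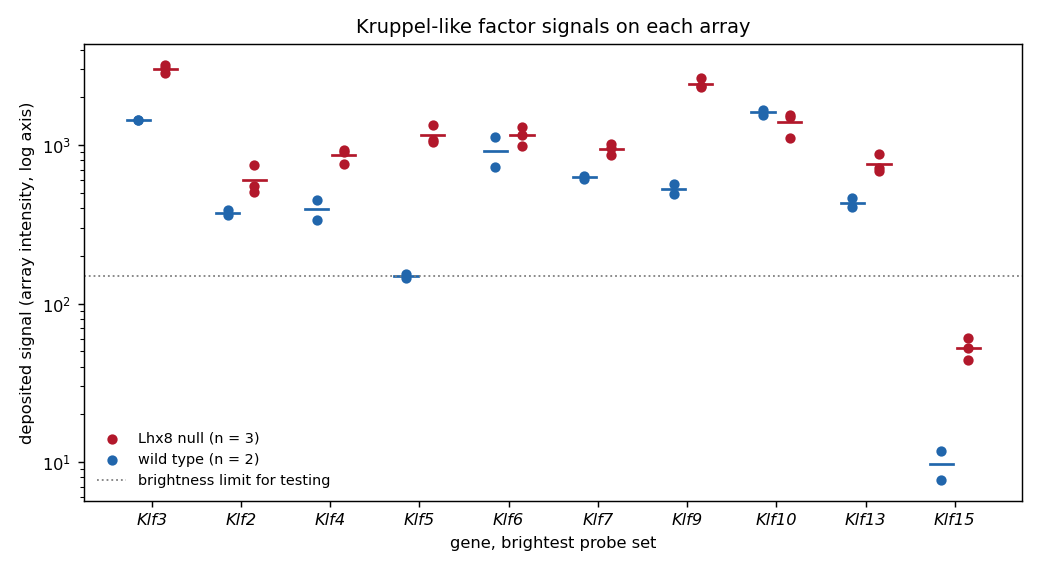
Deposited signal (log axis) of the brightest probe set of each of the 10 members in the 3 null and 2 wild type arrays, each point an array. The groups do not touch for Klf2, Klf3, Klf4, Klf5, Klf7, Klf9, Klf13 and the dim Klf15, and overlap for Klf6 and Klf10.

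Among the CtBP-binding repressors, Klf3 restrains gene programs in red cell, fat and lymphoid lineages. Its brightest probe set, 1454666_at, read 2833, 3061.4 and 3212.5 in null replicates 1 to 3 and 1432.9 and 1431.7 in wild type replicates 2 and 3; the order of arrays is the same throughout. Both wild type arrays were at almost the same value and every null array was well above them, with group means of 3036 ± 191 (SD, n = 3) and 1432 ± 0.849 (SD, n = 2). The difference was 1.13 (SE 0.12), or 2.2-fold. Klf3 had 7 probe sets, and all had a difference above 0. The steepest was 1429360_at, at 957.5, 625.3 and 731.8 against 179.5 and 168.4, a difference of 1.93 (SE 0.21). At 1421604_a_at the signals were 468.8, 629.7 and 472.9 against 188.5 and 136, a difference of 1.48. The gap was much narrower at 1431630_a_at, where 475.5, 317.7 and 304.4 stood against 303.7 and 263.6 and the difference was 0.24. The remaining 3 were dim, with differences of 0.43, 0.47 and 0.70. Probe sets of a gene lie on different stretches or variants of its transcript, and for Klf3 they disagreed in size and not in direction.

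The promoter of Klf3 is printed because it is the richest in KLF-type boxes among the members. Promoter windows are the 250 bases before the RefSeq start on GRCm38.p6, and RefSeq's table held one for 8 of the 10 members; Klf5 and Klf10 are named only. Capitals mark CACCC read on either strand in this stretch, chr5:64803271-64803520 on the plus strand.
Klf3: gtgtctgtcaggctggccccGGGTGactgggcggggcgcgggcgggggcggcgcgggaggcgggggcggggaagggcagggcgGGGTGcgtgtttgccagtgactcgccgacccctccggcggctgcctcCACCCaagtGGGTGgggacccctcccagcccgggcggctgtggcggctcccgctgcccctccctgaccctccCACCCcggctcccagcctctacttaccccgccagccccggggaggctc
It holds 5 CACCC matches and 6 matches to the GC box GGGCGG, and 1 base is shared by a GC box and a CACCC match. Its base composition is 78.4% G or C.

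Klf12, the other CtBP-binding gene on the array that could be tested, is no member and was taken from a list of 7 further Klf genes. It rose by 0.82 (SE 0.19, adjusted p = 0.00619 in limma with Benjamini-Hochberg adjustment), with 619.6, 723.9 and 781.7 against 331.2 and 443.3. The null arrays lay above both wild type arrays, but the call was lost without wild type replicate 2 (adjusted p = 0.0621). Klf8 was not matched to a probe set.

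The activators held both the largest difference and a gene without a settled direction. Klf5, which drives proliferation in epithelia of the gut, lung and bladder and is active in smooth muscle, had signals of 1343.3, 1052.8 and 1069.1 in null and 152.7 and 145 in wild type ovaries (1451021_a_at). The null arrays were far above both wild type arrays, which sat at the level of the dimmest genes tested. Null samples averaged 1155 ± 163 (SD, n = 3) and wild type samples 149 ± 5.44 (SD, n = 2), a difference of 2.72 (SE 0.17), or 6.59-fold. The other 2 probe sets were dim, and both were higher on every null array. At 1451739_at the signals were 160.1, 120.3 and 161.3 against 73.4 and 63.6, a difference of 0.71 (SE 0.31), and at 1430255_at the difference was 0.83. The mean over its probe sets therefore gave a smaller difference, 1.42.

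Klf4, a factor of terminally differentiating epithelia and one of the genes used to reprogram cells to pluripotency, read 907.2, 761.8 and 928.9 against 337.7 and 451 (1417394_at). The lowest null array stood well above the higher wild type array, and the averages were 866 ± 90.9 (SD, n = 3) in null and 394 ± 80.1 (SD, n = 2) in wild type ovaries. The difference was 1.09 (SE 0.18), or 2.13-fold. Its second probe set, 1417395_at, was dimmer, at 334.4, 230.7 and 384 against 179.5 and 127.4, and gave 0.80 (SE 0.28) with no overlap. The 2 probe sets differed by less than their standard errors combined. The Klf4 promoter is shown as the member window with several GC boxes and no CACCC match. It is chr4:55532476-55532725 on the minus strand, with GGGCGG on either strand in capitals.
Klf4: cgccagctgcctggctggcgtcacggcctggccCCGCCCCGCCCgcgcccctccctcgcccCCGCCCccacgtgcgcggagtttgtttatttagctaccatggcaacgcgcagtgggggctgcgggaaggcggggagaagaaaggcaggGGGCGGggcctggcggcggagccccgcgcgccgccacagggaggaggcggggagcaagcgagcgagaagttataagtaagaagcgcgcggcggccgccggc
Of its 4 GC box matches, the pair farthest from the start share a base and run together.

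Epithelial markers moved in the same direction as Klf4 and Klf5. Of 14 tested markers of oviduct and tract epithelium, 13 rose and none fell, with a median difference of 1.93. Among all genes tested, 25.6% were called higher and 22.3% lower. Their summed signal was 34150.7 to 38930.1 in null and 9332.9 to 10453.9 in wild type samples. Wfdc2, a secreted protein of the tract epithelium, rose by 5.24 (adjusted p = 2.56e-07, limma), the oviduct glycoprotein gene Ovgp1 by 4.30 (adjusted p = 3.88e-06) and the tight junction gene Cldn3 by 3.55 (adjusted p = 6.53e-06). The wild type means of these genes were 128, 78.25 and 85.55, under the level for testing of about 150. That level applied to the mean over both groups, so markers dim in wild type samples were tested only if high in null samples. The count of 13 includes such markers. Elf3 was the tested marker not called, and the cilia factor Foxj1 was too dim, with no signal above 114.1. Surface mesothelium markers, 3 of which are also on the epithelial list, rose in 10 of 12 and fell in 1, with sums of 38752.4 to 42523.2 against 23201 to 25138.4. Msln rose by 2.73 (adjusted p = 7.79e-06) and Upk1b by 1.94 (adjusted p = 1.05e-05), while Aldh1a1 fell by 1.60 (adjusted p = 1.08e-05). The part of these cells in the Klf4 and Klf5 values was not tested, and in whole ovaries a different number of cells of a type and a different amount of RNA per cell cannot be told apart.

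Klf2 is known as the flow-induced factor of resting endothelium and as a regulator of lymphocyte traffic. Its only probe set, 1448890_at, read 743.6, 505.9 and 555.6 against 386.7 and 363.6. Null replicate 1 was the highest array, and the null arrays spread more widely than the wild type ones, at 602 ± 125 (SD, n = 3) and 375 ± 16.3 (SD, n = 2). The groups did not overlap, and the difference was 0.61 (SE 0.19), or 1.52-fold. It was 0.46 without null replicate 1, and the call was lost when either wild type array was left out, at a threshold of 0.01, when all probe sets were tested separately, and when arrays were centred on their medians. The Klf2 promoter is printed because it is the only member window that matches the binding motif of MEF2, the factor through which the MAP2K5 and ERK5 kinases induce Klf2 in endothelium. The match is in capitals in chr8:72318812-72319061 on the plus strand and lies 118 to 109 bases before the start.
Klf2: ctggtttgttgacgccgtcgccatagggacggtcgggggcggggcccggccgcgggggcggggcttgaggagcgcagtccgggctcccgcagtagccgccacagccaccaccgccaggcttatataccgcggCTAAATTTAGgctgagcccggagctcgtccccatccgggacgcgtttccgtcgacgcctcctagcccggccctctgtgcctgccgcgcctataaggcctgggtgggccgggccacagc
The MEF2 motif was found in 2.92% of all 32851 windows of the table. Of the genes of that route, Mef2c rose by 1.13 (adjusted p = 0.000937, limma) and Map2k5 was at 0.48 (adjusted p = 0.0198). The Map2k5 call was lost without either wild type array and without null replicate 3 (adjusted p = 0.0708). It was also lost with the mean of probe sets (0.28, adjusted p = 0.207) and with arrays centred on their medians (0.23, adjusted p = 0.261). Mapk7, which encodes ERK5, had a difference of 0.32 (adjusted p = 0.251). Mef2a and Mef2d had differences of 0.16 and -0.03 and were not called.

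Endothelial markers moved with Klf2. Of 14 tested, 9 rose and none fell, with a median difference of 0.79, against 25.6% higher and 22.3% lower of all genes tested. The summed signal of the markers was 13465.2 to 14553.8 in null and 5881.6 to 7436.4 in wild type samples. The endothelial factor Sox17 rose by 2.43 (adjusted p = 8.96e-06, limma), the diaphragm protein gene Plvap by 2.33 (adjusted p = 8.58e-05) and Egfl7 by 1.39 (adjusted p = 9.53e-05). Sox17 and Plvap can also be expressed by cells other than endothelium. On the same list Esam rose by 0.97 (adjusted p = 0.000435), Pecam1 by 0.71 (adjusted p = 0.0032) and Kdr by 1.10 (adjusted p = 0.000257). The junction genes Cdh5 and Cldn5 were not called, at 0.37 (adjusted p = 0.161) and -0.05 (adjusted p = 0.836). The endothelial targets with which Klf2 is most often read out were not called either: Nos3 was at -0.55 (adjusted p = 0.134), Thbd at -0.37 (adjusted p = 0.329) and S1pr1 at -0.33 (adjusted p = 0.254). The part of endothelial cells in the Klf2 value was not tested.

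Klf7, best known from developing neurons and fat precursor cells, read 1014.3, 871.1 and 961.8 against 614.3 and 634.5 at 1449439_at. Null arrays averaged 949 ± 72.4 (SD, n = 3), wild type arrays averaged 624 ± 14.3 (SD, n = 2), and the difference was 0.60 (SE 0.14), or 1.52-fold, with no overlap. All 4 probe sets of Klf7 were above the level for testing and had differences above 0. They ranged from 0.14 at 1419356_at, where the groups overlapped, to 1.10 at 1419355_at, where 351.9, 323.4 and 440.2 stood against 120.7 and 171.4.

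Klf6 is expressed widely and is induced early after injury in liver and vessel wall. Its brightest probe set, 1433508_at, read 992.9, 1151.9 and 1303.6 against 723.2 and 1117.5, so null replicate 1 was below wild type replicate 3 and the groups overlapped. Null arrays averaged 1149 ± 155 (SD, n = 3) and wild type arrays 920 ± 279 (SD, n = 2). The difference of 0.38 (SE 0.20) rested on which wild type array was used: it was 0.07 without wild type replicate 2 and 0.67, then called higher, without wild type replicate 3. The other probe sets of Klf6 went both ways. At 1427742_a_at every null array was higher, at 430.8, 329.3 and 350.1 against 153.8 and 246.3, a difference of 0.73 (SE 0.24). At 1418280_at every null array was lower, at 290.4, 212.1 and 245 against 308.6 and 455.9, a difference of -0.67 (SE 0.23), and this was the only member probe set of the 34 with that order. At 1447448_s_at the groups overlapped and the difference was 0.43, and 1459718_x_at was dim, at -0.71 (SE 0.84). No single direction can be given for Klf6, and the mean over its probe sets gave 0.03.

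**Figure D3:**
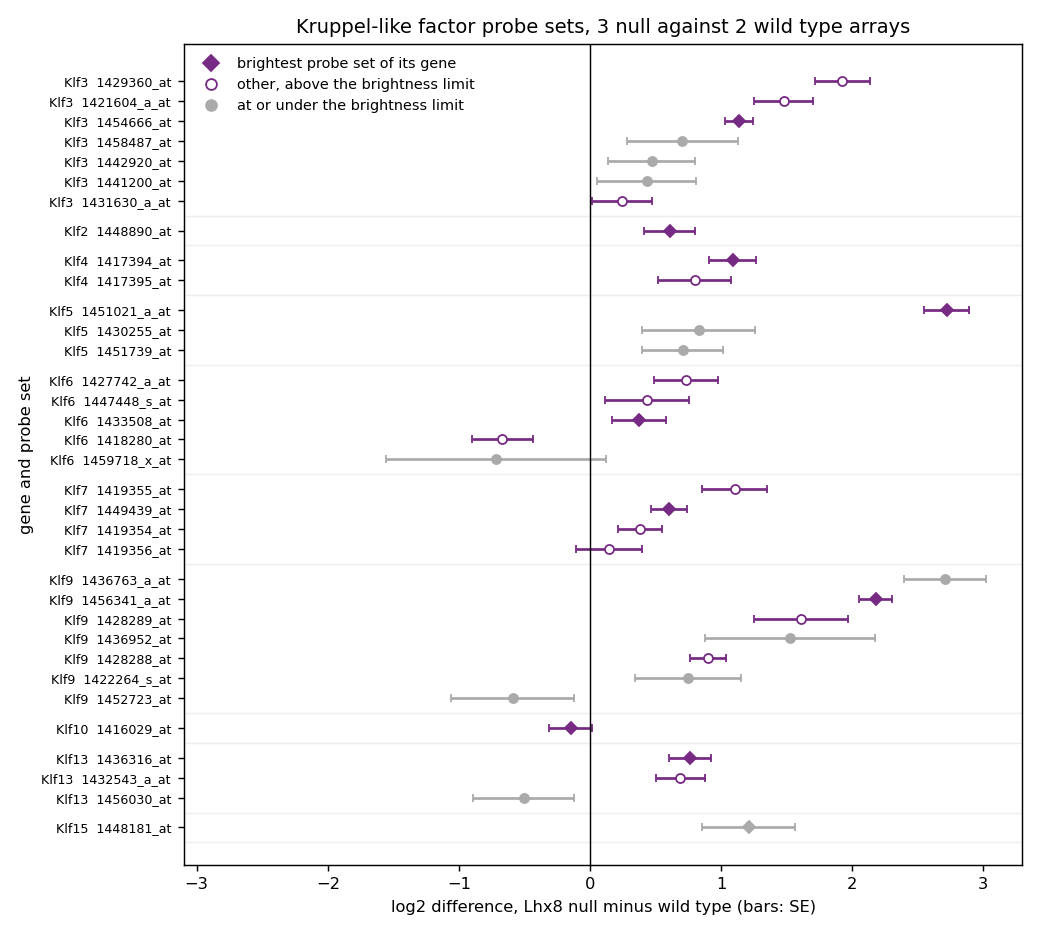
Log2 difference (null minus wild type, x axis) with its SE for each of the 34 member probe sets, grouped by gene; diamonds are the brightest probe set of a gene and grey marks are at or under the brightness limit. Probe sets of Klf3, Klf4, Klf5 and Klf7 all lie above 0, and those of Klf6 lie on both sides.

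In the SIN3A-binding group the members split. Klf9 is induced by thyroid hormone and glucocorticoids and works with the progesterone receptor in the uterus. At 1456341_a_at it read 2328.1, 2635.3 and 2363.2 in null and 571.5 and 490.3 in wild type samples. The arrays of each group lay close together and far from the other group, at 2442 ± 168 (SD, n = 3) and 531 ± 57.4 (SD, n = 2), a difference of 2.18 (SE 0.13), or 4.53-fold. The second in brightness, 1428288_at, gave less, at 1664.9, 1678.5 and 1373.4 against 899.4 and 817.8 and a difference of 0.90 (SE 0.14). The gap between these 2 probe sets was several times larger than either standard error. At 1428289_at the signals were 1483.9, 675.7 and 658.5 against 211 and 329.6, with null replicate 1 well above the other null arrays, and the difference was 1.61 (SE 0.36). The dimmer 1436763_a_at had signals of 257.6, 362.9 and 318.3 against 31.9 and 23.9 and a difference of 2.71 (SE 0.31). In all, every null array was above both wild type arrays in 6 of 7 Klf9 probe sets, and the dim 1452723_at, at -0.59, was the exception. Taken as a mean over its probe sets, Klf9 had a difference of 1.30.

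The Klf9 promoter is shown as the window of the member with the second largest difference. It is chr19:23140976-23141225 on the plus strand, and capitals mark its CACCC match.
Klf9: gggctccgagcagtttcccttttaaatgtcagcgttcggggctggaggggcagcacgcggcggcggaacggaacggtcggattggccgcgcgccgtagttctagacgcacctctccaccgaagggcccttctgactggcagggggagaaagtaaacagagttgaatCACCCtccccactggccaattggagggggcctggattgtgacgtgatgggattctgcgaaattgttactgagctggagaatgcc
It is less GC-rich than most member windows, at 59.6%, and holds no GC box.

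Klf13, which activates chemokine transcription in T cells, read 874.7, 716.9 and 682.3 against 462.5 and 405.1 (1436316_at). The groups did not overlap, at 758 ± 103 (SD, n = 3) and 434 ± 40.6 (SD, n = 2), and the difference was 0.76 (SE 0.16), or 1.7-fold. A second probe set, 1432543_a_at, gave nearly the same, at 616.4, 461.4 and 482.1 against 300.5 and 296.8 and 0.69 (SE 0.18). The dim 1456030_at was at -0.50, and with it the mean over probe sets was 0.32 and no longer called.

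Klf10 was the only member tested below 0. Known as TIEG, a gene that TGF-beta induces early, it read 1502.5, 1111.5 and 1555.4 against 1673.9 and 1548.5 at its only probe set, 1416029_at. Null replicate 3 was above the lower wild type array, so the groups overlapped, at 1390 ± 242 (SD, n = 3) and 1611 ± 88.7 (SD, n = 2). The difference of -0.15 (SE 0.17) was smaller than its error and came to 0.01 without null replicate 2. Klf11, the closest relative of Klf10 and no member, had 1439.6, 916.2 and 903.2 against 1513 and 1619. All null arrays were below both wild type arrays, and the difference of -0.48 (SE 0.21) missed the threshold (adjusted p = 0.0838, limma). It passed without null replicate 1 (adjusted p = 0.00181), with no quantile step (adjusted p = 0.047) and with arrays centred on their medians (adjusted p = 0.00468). Klf16 differed by -0.04 (adjusted p = 0.872), and Klf14 was too dim to be tested. Whether Klf9 and Klf13 differ from the other SIN3A-binding genes in their response was not tested.

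Klf15, an inducer of amino acid breakdown and glucose production in liver and muscle, was dim on every array. Its only probe set, 1448181_at, read 61, 43.8 and 52.5 in null and 7.7 and 11.7 in wild type samples. All 5 signals were under the level for testing. Fitted without the brightness filter over single probe sets the difference was 1.21 (SE 0.36), a value that the added 16 shrinks at such low signals. Because Klf15 is active in fat and Klf3, Klf4 and Klf5 act in fat cell formation, adipocyte markers were read as well. Fabp4 rose by 3.44 (adjusted p = 0.000121, limma) and Cebpa by 0.99 (adjusted p = 0.00868; 0.0834 without wild type replicate 3), but Fabp4 is also expressed in capillary endothelium and macrophages. The adipocyte genes Adipoq, Pparg, Plin4, Cidec, Lep and Retn were all too dim to be tested, with no signal above 61.5 on any array.

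The remaining Klf genes and the Sp factors did not move together. Klf1, the erythroid KLF, read 490.3, 295.6 and 88.5 in null and 191.1 and 152.3 in wild type samples. The null arrays lay on both sides of the wild type ones, and the difference was 0.30 (SE 0.55, adjusted p = 0.674, limma); without null replicate 3 it was 0.96 (adjusted p = 0.022). Erythroid markers, a list that includes Klf1, were also lowest in null replicate 3, with a summed signal from 1056.4 to 4171.8 in null and from 1371.9 to 1511 in wild type samples, and of the 4 tested only Alas2 was called, at 1.29 (adjusted p = 0.00964), a call lost without either wild type array. Klf17, a factor of oocytes and early embryos, was too dim to be tested. Its brightest probe set, 1429303_at, read 62.3, 49.6 and 62.5 in null and 69.5 and 130.2 in wild type samples, a difference of -0.84. At 1456561_s_at the signals were 3.9, 8.5 and 3.6 against 66.2 and 143.2, a difference of -2.60. At 1438899_at the groups overlapped and the difference was 0.05, so the Klf17 probe sets disagreed in size and in sign. Of the Sp factors, which compete for the same boxes, Sp1 rose by 0.66 (SE 0.11, adjusted p = 0.00147). With arrays centred on their medians the Sp1 call was lost (adjusted p = 0.0776), and its other probe sets, 1418180_at and 1448994_at, gave 1.03 and -1.15, so no single direction holds for Sp1. Sp3 was at -0.41 (adjusted p = 0.0827), with all null arrays below both wild type arrays. It passed as lower with arrays centred on their medians (adjusted p = 0.00588), with no quantile step (adjusted p = 0.0477) and without null replicate 1 (adjusted p = 0.0133). Sp4 was at 0.14 (adjusted p = 0.721) and Sp5 at 0.22 (adjusted p = 0.559). Sp6, Sp7 and Sp8 were dim, and Sp2 and Sp9 were not matched.

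In the 8 member promoters, CACCC was found in 6 and GGGCGG in 7, on either strand, against 52% and 32.7% of all 32851 windows of the same length. The member windows were 59.2% to 78.4% G or C while the median of all windows was 52.4%, and the shares were not adjusted for that. In the order Klf2, Klf3, Klf4, Klf6, Klf7, Klf9, Klf13 and Klf15, the CACCC matches numbered 1, 5, 0, 0, 3, 1, 1 and 1 and the GC box matches 2, 6, 4, 1, 1, 0, 3 and 1. The CArG box, the motif of the serum response factor, and TAATTA, a core bound by many homeodomain proteins, were in none of the 8 windows and in 1.47% and 4.84% of all windows. A match is a stretch of letters and not a measured binding site, and none of these arrays measured binding.

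The partners of KLF proteins changed in both directions. Of 16 tested cofactors and ubiquitin ligases, 6 rose and 5 fell, with a median difference of 0.21. Of all genes tested, 25.6% were called higher and 22.3% lower, so changes in both directions are not particular to this list. Both CtBP genes, the corepressors of KLF3, rose: Ctbp2 by 1.34 (adjusted p = 0.000107, limma) and Ctbp1 by 0.52 (adjusted p = 0.0129). The SIN3 scaffolds, corepressors of the KLF9 group, were lower: Sin3a fell by 0.64 (adjusted p = 0.00351) and Sin3b fell by 0.51 (adjusted p = 0.00252). Among the deacetylases in these complexes Hdac1 rose by 0.51 and Hdac2 fell by 0.51 (adjusted p = 0.0273 and 0.0168). Of the acetyltransferases, Crebbp fell by 0.65 at its brightest probe set (adjusted p = 0.00365) but was at 0.57 over the mean of its probe sets (adjusted p = 0.0458), so no direction is given for it. Kat2b was at 0.43 (adjusted p = 0.0396) and at 0.06 over the mean of its probe sets (adjusted p = 0.871). With no brightness filter it was no longer called (adjusted p = 0.0523). Ep300 was not called at -0.42 (adjusted p = 0.145). Among the ligases that mark KLFs for breakdown, Fbxw7, which acts on KLF5 and KLF2, fell by 1.02 (adjusted p = 0.00531). Wwp1, also a KLF5 ligase, was at 0.41 (adjusted p = 0.027) and at -0.14 over the mean of its probe sets. Fbxo32, reported for KLF4, rose by 2.63 (adjusted p = 0.000149). With arrays centred on their medians, 2 of this list rose and 6 fell, and the calls for Ctbp1, Hdac1, Kat2b and Wwp1 were lost. Leaving out wild type replicate 2 ended the calls for Fbxw7 (adjusted p = 0.0631) and Hdac2 (adjusted p = 0.145), and leaving out wild type replicate 3 those for Ctbp1 (adjusted p = 0.118) and Hdac1 (adjusted p = 0.211).

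Regulators upstream of the family rose more often than they fell, with 9 higher, 2 lower and 6 not called among 17 tested. Of all genes tested, 25.6% were called higher and 22.3% lower. Over the 15 alternatives 5 to 9 of the list were higher and 1 to 3 lower. The 5 came with the mean of probe sets. The progesterone receptor gene Pgr rose by 3.05 (adjusted p = 1.08e-05, limma), the thyroid hormone receptor gene Thra by 0.72 (adjusted p = 0.0019) and the glucocorticoid receptor gene Nr3c1 by 0.91 (adjusted p = 0.000674). The Nr3c1 value depended on the probe set: the mean over its probe sets gave 0.24 (adjusted p = 0.455). Genes known to answer glucocorticoids did not move as a block. Dusp1 rose by 0.82 (adjusted p = 0.00403), Sgk1 by 0.68 (adjusted p = 0.00434), and Cdkn1a by 1.17 (adjusted p = 0.00344). Cebpd was at 0.55 (adjusted p = 0.0255) and at -0.08 over the mean of its probe sets. Fkbp5, one of the most used readouts of the receptor, fell by 0.77 (adjusted p = 0.00173), though its mean over probe sets was -0.36 (adjusted p = 0.172). With arrays centred on their medians 2 of this list were higher and 1 lower, and the Sgk1 call was lost (adjusted p = 0.0661). Tsc22d3 and Per1 were at 0.24 (adjusted p = 0.219) and 0.27 (adjusted p = 0.377) and were not called. On the TGF-beta side, which induces Klf10, the ligand genes Tgfb1, Tgfb2 and Tgfb3 rose by 1.01, 1.00 and 0.61 (adjusted p = 0.033, 0.000804 and 0.00659) and the receptor gene Tgfbr2 by 1.74 (adjusted p = 1.63e-05). The receptor gene Tgfbr1 fell by 0.38 (adjusted p = 0.0298) and the signal transducer gene Smad3 fell by 1.23 (adjusted p = 0.00109). With arrays centred on their medians the list had 6 higher and 3 lower, and the calls for Thra (adjusted p = 0.0643) and Tgfb3 (adjusted p = 0.115) were lost. The Tgfb1 call was lost with no brightness filter (adjusted p = 0.0603), the mean of probe sets (0.0872) and separate probe sets (0.0784). It was also lost without null replicate 1 (0.06) or 2 (0.0629), and the difference was 0.63 without wild type replicate 3. The Tgfbr1 call was lost with separate probe sets (adjusted p = 0.0625), no variance trend (0.07) and without null replicate 2 (0.106). Its difference was -0.35 without wild type replicate 2.

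Reported KLF targets rose in 7 of 14 tested and none fell, with a median difference of 0.59. Beside this and the list counts below stand 25.6% called higher and 22.3% called lower among all genes tested. Tagln, the smooth muscle gene transgelin, rose by 2.05 (adjusted p = 6.82e-06, limma), the galectin gene Lgals3 by 3.16 (adjusted p = 1.09e-05) and the nonmuscle myosin gene Myh10 by 1.06 (adjusted p = 0.00015). Ccnd1 and Cdkn1a, cell cycle genes that KLFs are reported to move in opposite directions, rose by 1.06 and 1.17 (adjusted p = 0.000983 and 0.00344). Tagln is also on the list of stroma and smooth muscle markers, where 15 of 16 genes rose and the summed signal was 153289.5 to 175184.1 in null and 67074.8 to 78100.3 in wild type samples. Thy1 rose by 3.49 (adjusted p = 5.75e-06) and Postn by 1.81 (adjusted p = 6.07e-06) on that list. Lgals3 is abundant in macrophages, whose markers rose in 12 of 13 tested, with sums of 14442.9 to 16346.4 against 4668.3 to 5075.7 and Csf1r up by 1.94 (adjusted p = 1.08e-05), C1qb by 1.85 (adjusted p = 3.64e-05) and Mrc1 by 1.55 (adjusted p = 5.13e-05). The part of stromal cells and macrophages in the values of the targets and of the Klf genes was not tested.

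Several KLF genes respond to the signals that switch on immediate early genes, so those were read beside them. Of 17 tested, 12 rose and 1 fell, with a median difference of 0.66, against 25.6% higher and 22.3% lower of all genes tested. Ccn2 rose by 0.96 (adjusted p = 0.000605, limma), Myc by 1.15 (adjusted p = 0.000715) and Jun by 0.96 (adjusted p = 0.00188). Egr1 fell by 0.43 (adjusted p = 0.0416), and Fos was not called at 0.45 (adjusted p = 0.313). The Egr1 call was lost with no brightness filter (adjusted p = 0.0521), separate probe sets (0.0734), no variance trend (0.0606) and without null replicate 2 (0.138). The Egr1 difference was -0.28 without wild type replicate 3, and Fos passed without null replicate 2 (adjusted p = 0.0497). With arrays centred on their medians the count was 8 higher and 1 lower.

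Germ cell and granulosa markers moved opposite to most members. All 15 germ cell markers fell, with a summed signal of 10757.5 to 16280.5 in null and 97379.5 to 98198.1 in wild type samples. The egg coat gene Zp3 fell by 6.30 (adjusted p = 3.88e-06, limma), Gtsf1 fell by 4.91 (adjusted p = 2.56e-07) and Dppa3 fell by 4.13 (adjusted p = 2.76e-06). Of 13 granulosa markers tested 11 fell, with sums of 20144.9 to 23112 against 33314.1 to 36671.6. For both lists, the share called lower among all genes tested was 22.3%. Inhbb fell by 1.71 (adjusted p = 9.74e-05), Runx1 fell by 2.18 (adjusted p = 0.000154) and Irx3 fell by 1.17 (adjusted p = 0.000188). The tested granulosa markers not called were Wnt4 at 0.32 (adjusted p = 0.295) and Rspo1 at 0.03 (adjusted p = 0.888). The part of these cells in the member values was not tested.

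At an unadjusted p below 0.05 in the same limma fit, 7 of the 9 lists with no gene called lower (epithelial, endothelial, macrophage, stromal, adipocyte and erythroid markers and KLF targets) still had 0 lower genes. The other Klf genes and the Sp factors had 1 each, Klf11 and Sp3. The germ cell and granulosa lists had 0 higher genes. The share of all genes tested that passed this unadjusted cut is not given, so nothing is read from these counts.

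**Figure D4:**
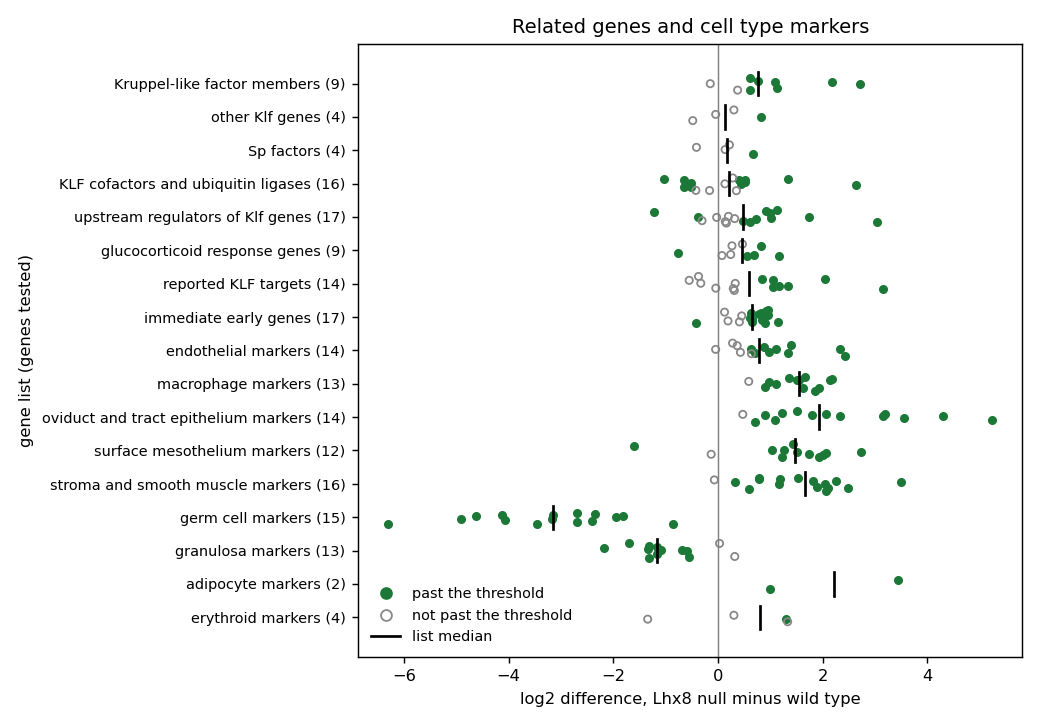
Log2 difference (null minus wild type) of every tested gene of each list, each point a gene (filled where past the threshold), with a bar at the median of the list. The 9 members tested have a median of 0.76, between the epithelial, stromal and macrophage markers, whose medians are 1.93, 1.67 and 1.55, and the 0.04 of all genes tested.

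How far the calls depend on the scaling matters for the smaller member values. With each array centred on its median and no quantile step, the median difference of all genes tested moved from 0.04 to -0.18 and the share of calls that were higher from 53.5% to 33.5%. Klf3, Klf4, Klf5, Klf9 and Klf13 were still called higher, Klf2 at 0.39 and Klf7 at 0.34 were not, and Klf10 was called lower at -0.47. Measured from the median of all genes tested, the members moved little between the 2 scalings, which is in part built in. Centring shifts each array by a constant, and this measure takes such a shift out. Klf2 was 0.57 above that median in the first and 0.58 in the second, Klf7 was 0.56 and 0.53 above it, and Klf10 was at -0.19 and -0.29.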

How the data were processed

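The authors deposited 1 intensity per probe set and array on a linear scale, scaled so that the trimmed mean (2% off each end) is 500, as tested on the values; the submitters' processing notes name GCOS for wild type arrays only. The members and lists were chosen with earlier results of these data known. Of the 45037 probe sets that are no controls, 34945 had 1 gene symbol, 932 several and 9160 none; genes are named from those with 1. From the deposited intensities log2(signal + 16) was computed and quantile normalised, the brightest probe set by mean was kept per gene, the lowest 40% of genes were left out (7277 of 18193), and limma 3.58.1 (R 4.3.3; eBayes with trend, Benjamini-Hochberg over all genes tested) compared 3 null with 2 wild type arrays, after being tested on simulated data. P-values measure the spread between pools, and the number of arrays limits the precision. A fold change on this scale understates the change of dim genes. The filter used the mean over both groups, so a gene dim in 1 group was tested only if bright in the other. Named genes are all members, all other Klf and Sp genes, the 3 tested genes of smallest p in each other list and any gene behind a count of 3 or fewer; the other genes named were chosen after their values were seen, for their known part in KLF biology. Patterns most like a member's have the smallest root mean square difference of mean-centred levels. Alternatives were the scaling, the added constant, the filter, probe set handling, the variance trend, the threshold, a block and leaving out each array. Figures used matplotlib 3.10.9.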

Additional observations from a re-analysis of the deposited data

How the results depend on the processing

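Over the 14 alternatives other than the threshold, the values of the 9 members tested ranged from 1.42 to 2.83 for Klf5, 1.30 to 2.26 for Klf9, 0.83 to 1.17 for Klf3, 0.87 to 1.28 for Klf4, 0.32 to 0.83 for Klf13, 0.39 to 0.72 for Klf2, 0.34 to 0.66 for Klf7, 0.03 to 0.67 for Klf6 and -0.47 to 0.01 for Klf10. Of 135 member values 119 moved by less than the spread between arrays or not at all, and 16 by more. The 119 include values that could not move. The threshold, the variance trend, the brightness filter and separate probe sets leave the difference of a gene's brightest probe set as it is. Of 2631 values of 176 tested genes of the lists, 2447 kept their direction and side of the threshold or were not called, 37 passed it newly, 144 no longer passed and 3 changed direction: with the mean of probe sets Crebbp was at 0.57 (adjusted p = 0.0458), Wwp1 at -0.14 (adjusted p = 0.399) and Cebpd at -0.077 (adjusted p = 0.848). The main setting called 2791 genes higher and 2429 lower. Median centring called 1720 genes higher and 1 member, Klf10, lower; separate probe sets gave 4816 higher and 4642 lower of a larger number tested; a threshold of 0.01 left 1831 higher. Without 1 array in turn, 1803 to 2966 genes were called higher and 1619 to 2558 lower; where a wild type array was left out, the remaining one was assumed to vary like the null group. Probe sets and genes tested were kept from all arrays in these fits. Members called higher numbered 8 with no filter (Klf15 added), where 2871 of 18193 genes were called higher. They numbered 6 with the mean of probe sets (without Klf13), where 2192 genes were called higher. They also numbered 6 at 0.01 (without Klf2), with the 1831 genes given above. With separate probe sets they numbered 7, as Klf15 entered and Klf2 left. Because the members were chosen with this contrast known, nothing is read from these counts.

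With the replicate block, 3068 genes were called higher and 2583 lower, 8 members were higher, Klf6 added at 0.48, and Klf11 (adjusted p = 0.000908), Sp3 (adjusted p = 0.00614) and Ep300 (adjusted p = 0.00569) passed as lower. Deviations from the group mean correlated at -0.0418 and 0.0124 for arrays of the 2 shared numbers. With 2 wild type arrays their deviations mirror each other, so these values cannot decide whether pools were paired. The numbers were not taken as pairs because the labels name no link.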

Other observations

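Among all genes tested, the pattern over the 5 arrays most like that of Klf5 was that of Tppp3, a tubulin-binding protein gene, with a root mean square difference of 0.0747 in mean-centred log2 level and a difference between groups of 2.69. Sfrp2, a secreted WNT modulator, followed at 0.0861 and the fibronectin gene Fn1 at 0.105, with differences between groups of 2.83 and 2.52. For Klf10, the tested member with the lowest difference (-0.15, not called), the nearest were the kinase gene Mark4 at 0.034, the heat shock family gene Hspa12a at 0.0448 and the hyaluronan receptor gene Cd44 at 0.0449. The measure includes the difference between the groups, which the 2 genes of each pair share.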
